A study of Mus musculus with 3 samples.

Results

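The hedgehog pathway genes described here are 10 of the 27998 genes counted in nuclei of whole mouse hearts at embryonic day 9.5. They were chosen by symbol, with earlier results of these data known. They are the transcription factors Gli1, Gli2 and Gli3, the receptor Ptch1 and the transducer Smo. The others are the co-receptors Boc, Cdon and Gas1, the ligand-binding inhibitor Hhip and the GLI-binding inhibitor Sufu. Each library came from 5 pooled hearts of 1 genotype of Ncx1, the alias of the sodium-calcium exchanger gene Slc8a1: homozygous mutant (Ncx1-/-), heterozygous (Ncx1+/-) and wild type (Ncx1+/+). The series title places the hearts in a study of endocardial primary cilia and blood flow, and embryos that lack this exchanger have no regular heartbeat. With 1 library per genotype there is no test between genotypes, and each genotype value below stands for 1 pool of hearts.

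Hedgehog ligands bind the receptor Ptch1, which otherwise holds Smo inactive, and the co-receptors Boc, Cdon and Gas1 help the ligand to bind. Active Smo works in the primary cilium, where Sufu and protein kinase A control whether GLI proteins are cut into repressors or act as activators. Gli3 is the main source of the repressor form, Gli2 is the main activator, and Gli1, Ptch1 and Hhip are themselves transcribed in response to the signal. In the early heart the pathway is best known from the second heart field, the mesoderm that adds muscle to the poles of the heart tube.

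The Ncx1-/-, Ncx1+/- and Ncx1+/+ libraries held 52985283, 49022310 and 59898298 unique molecular identifiers (UMIs) in 12525, 12563 and 13805 barcodes. Slc8a1 stood at 1027, 6538 and 11825 CPM (counts scaled to a total of 1000000) in the Ncx1-/-, Ncx1+/- and Ncx1+/+ libraries, in the order of their labelled gene dose. The nuclear transcript Malat1 took 8.41% of UMIs in Ncx1-/-, 4.94% in Ncx1+/- and 4.69% in Ncx1+/+. In all, 144 barcodes occurred in more than 1 library. Nuclei were placed in classes by how many markers of a fixed list they held, and 34223 of 38192 kept nuclei fell in a class. The cardiomyocyte class had 9378, 8733 and 9254 nuclei in Ncx1-/-, Ncx1+/- and Ncx1+/+ and the endocardial class, which includes vascular endothelium, had 1399, 1708 and 1893. Nuclei with both endothelial and cushion mesenchyme markers, called mesenchyme-type, numbered 70, 180 and 356. Those with mesenchyme markers but few endothelial ones, called mesenchymal outside the lineage, numbered 91, 50 and 86. No hedgehog gene was used to place a nucleus. These classes are ranges of a marker count, so some nuclei lie near the limit: 49, 116 and 198 of the mesenchyme-type nuclei in Ncx1-/-, Ncx1+/- and Ncx1+/+ had no marker to spare, against 51, 81 and 88 of the endocardial nuclei.

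Gli3, on the plus strand at chr13:15463235-15730026 of mm10, had the largest difference of the 8 hedgehog genes tested between endocardial nuclei and cardiomyocytes. Its summed level in endocardial nuclei was 267 CPM in Ncx1-/-, 417 CPM in Ncx1+/- and 478 CPM in Ncx1+/+. In cardiomyocytes it was 40.9 CPM in Ncx1-/-, 64.3 CPM in Ncx1+/- and 75.2 CPM in Ncx1+/+, so every endocardial value lay above every cardiomyocyte value. The difference was 2.64 on the log2 scale (SE 0.21, adjusted p = 1.73e-09), by edgeR's quasi-likelihood test on sums per class and library with the library as a block. Here the 3 libraries serve as replicates although they differ in genotype, so the spread contains genotype differences too.

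Gli2, on the minus strand at chr1:118834132-119053619, had the opposite order of classes. It stood at 5.95, 10.8 and 15.4 CPM in endocardial nuclei of Ncx1-/-, Ncx1+/- and Ncx1+/+, against 27.96, 37.7 and 37.4 CPM in cardiomyocytes. Every endocardial value was below every cardiomyocyte value, a log2 difference of -1.69 for endocardial against cardiomyocyte nuclei (SE 0.27, edgeR adjusted p = 2.17e-05). The activator and repressor GLI genes thus had their higher levels in different classes, each compared with itself and not with the other gene. Gli1 held 42, 12 and 22 UMIs in all kept nuclei of Ncx1-/-, Ncx1+/- and Ncx1+/+ and was below the minimum of 100 counts in every class. Its 23, 8 and 14 UMIs in cardiomyocytes gave 0.601, 0.243 and 0.369 CPM.

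The promoters of Gli2 and Gli3 are shown because these 2 GLI genes had opposite orders of the classes. Each is the 250 bases before the RefSeq start in GRCm38.p6, 5′ to 3′ on the gene's own strand, with GC boxes (GGGCGG or CCGCCC) in capitals.
Gli2, chr1:119053620-119053869, minus strand: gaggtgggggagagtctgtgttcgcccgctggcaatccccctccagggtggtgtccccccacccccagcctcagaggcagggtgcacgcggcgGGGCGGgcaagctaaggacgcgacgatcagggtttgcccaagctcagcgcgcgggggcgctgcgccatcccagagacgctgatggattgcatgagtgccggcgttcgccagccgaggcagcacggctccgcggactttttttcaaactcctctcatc
Gli3, chr13:15463473-15463722, plus strand: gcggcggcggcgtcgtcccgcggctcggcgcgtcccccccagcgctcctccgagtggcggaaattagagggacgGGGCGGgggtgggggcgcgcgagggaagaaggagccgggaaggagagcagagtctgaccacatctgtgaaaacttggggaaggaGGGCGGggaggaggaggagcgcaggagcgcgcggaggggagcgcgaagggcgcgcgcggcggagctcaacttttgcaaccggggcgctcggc
The Gli3 window lies inside the GENCODE gene, after its start at chr13:15463235. The GLI-type motif GACCACCCA, on either strand, was found in the windows of 0 of the 8 members with an entry and of 0.225% of 32851 promoters. A GC box was found in 6 of the 8 members and in 32.7% of all promoters (1 in Gli2 and 2 in Gli3). With no GLI-type match in the printed windows, the motifs had no overlap there.

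Among the co-receptors, Boc followed the order of Gli3. It stood at 13.8, 34.3 and 40.1 CPM in endocardial nuclei of Ncx1-/-, Ncx1+/- and Ncx1+/+, and at 6.97, 6.94 and 6.24 CPM in cardiomyocytes. Endocardial values were the higher ones in each library, by 2.0 on the log2 scale (SE 0.24, edgeR adjusted p = 5.17e-07). Cdon stood at 43.8, 58.6 and 75.0 CPM in endocardial nuclei of Ncx1-/-, Ncx1+/- and Ncx1+/+ and at 60.0, 66.9 and 70.8 CPM in cardiomyocytes. The Cdon ranges overlapped, and the difference of -0.25 (SE 0.12) missed the threshold with an edgeR adjusted p of 0.0786. Gas1, a co-receptor anchored in the outer membrane, ranged from 10.8 to 13.3 CPM over both classes, with a difference of 0.00 (SE 0.18) and an edgeR adjusted p of 1.00.

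Of the components inside the pathway, Smo was lower in endocardial nuclei, with 119, 108 and 117 CPM in Ncx1-/-, Ncx1+/- and Ncx1+/+ against 157, 153 and 148 CPM in cardiomyocytes (log2 difference -0.47, SE 0.10, edgeR adjusted p = 4.03e-04). Sufu was higher in them, with 98.9, 115 and 117 CPM against 69.0, 82.4 and 81.8 CPM (0.45, SE 0.10, edgeR adjusted p = 4.23e-04). Ptch1 stood at 104, 121 and 135 CPM in endocardial nuclei and at 97.8, 101 and 101 CPM in cardiomyocytes, a difference of 0.20 (SE 0.11) that missed the threshold with an edgeR adjusted p of 0.109. Of the 8 members tested, 3 were thus higher and 2 lower in endocardial nuclei, beside 31.1% of all 11137 genes higher and 34.5% lower. A share this large of all genes differs between the classes, so the count of members says little; their sizes and directions are the description. The median member difference was 0.10 on the log2 scale. Without the Ncx1-/- library Ptch1 passed as well (0.35, edgeR adjusted p = 5.53e-06).

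**Figure D1:**
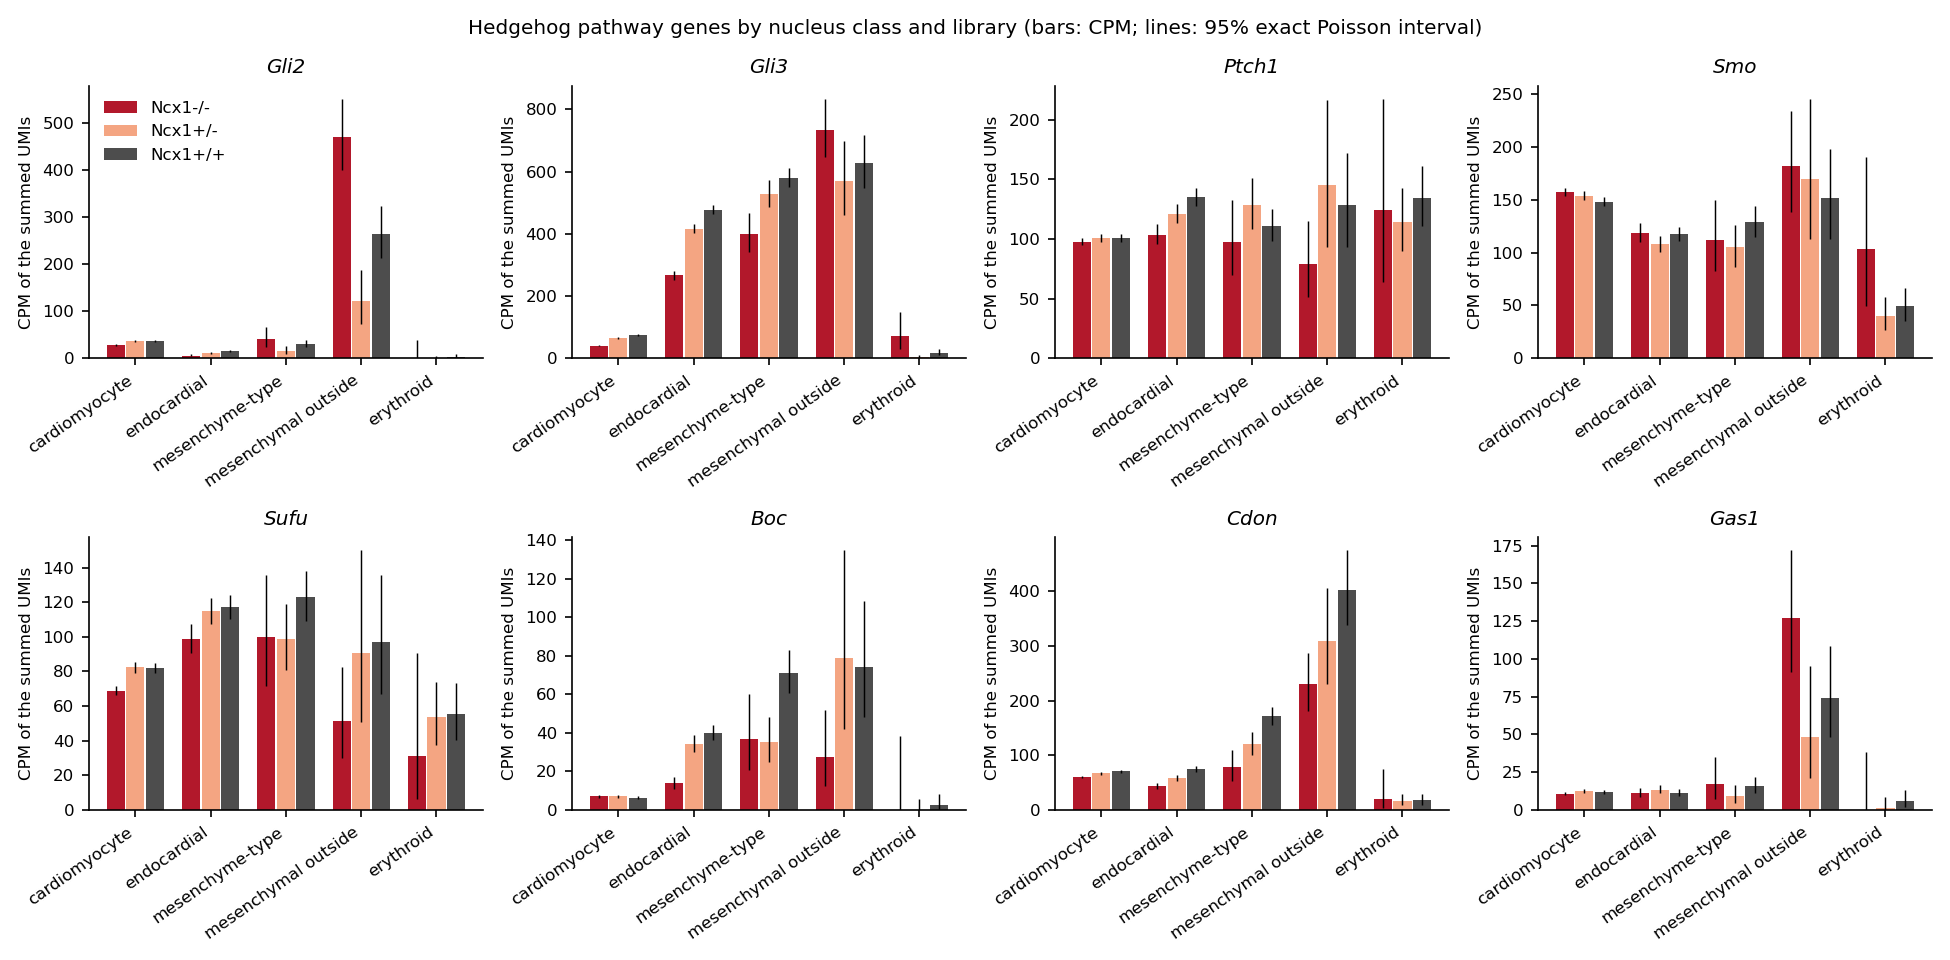
Summed level (CPM, linear axis from 0) of the 8 measured hedgehog genes in 5 classes of nuclei, with bars for Ncx1-/-, Ncx1+/- and Ncx1+/+ from left to right and lines for 95% exact Poisson intervals, which cover counting error only. Gli3 reached 478 CPM in endocardial nuclei of Ncx1+/+ against 75.2 CPM in their cardiomyocytes. Gli2, Gli3, Ptch1, Smo, Boc, Cdon and Gas1 had their tallest bars in mesenchymal nuclei outside the lineage. That of Ptch1 was 145 CPM in Ncx1+/-, on 24 UMIs. That of Boc was 78.8 CPM in Ncx1+/-, on 13 UMIs, beside 71.3 CPM on 169 UMIs in mesenchyme-type nuclei of Ncx1+/+.

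Markers of the other class were counted as a guide to free RNA or mixed nuclei, but the gates held these same markers low. Cardiomyocytes could have at most 3 endothelial markers, and endocardial nuclei under 80 cardiomyocyte marker UMIs per 10000. The marker shares are therefore no upper limit. The summed cardiomyocyte markers of endocardial nuclei reached 9.65% of the cardiomyocyte level in Ncx1-/-, 7.64% in Ncx1+/- and 7.28% in Ncx1+/+. Endothelial markers in cardiomyocytes stood at 2.04%, 2.01% and 1.97% of their endocardial level. Gli3, which no gate used, stood in cardiomyocytes at 15.4%, 15.4% and 15.7% of its endocardial level. The part of free RNA or mixed nuclei in the cardiomyocyte Gli3 level was not tested. Erythroid nuclei had 0, 0 and 2 UMIs of Gli2 and 0, 0 and 2 UMIs of Boc. They held 7 UMIs of Gli3 in Ncx1-/-, all in 1 of 58 nuclei, 2 UMIs in Ncx1+/- and 16 UMIs in Ncx1+/+. Ptch1 had 12, 77 and 117 UMIs in erythroid nuclei of Ncx1-/-, Ncx1+/- and Ncx1+/+, which is 124, 114 and 134 CPM. In Ncx1-/- its interval (64.3 to 217 CPM) overlapped that of Gli3 (29.2 to 149 CPM).

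Within the endocardial class, Gli2, Gli3 and Boc were lower in the Ncx1-/- library than in both others, and no measured member was higher. A gene is said to stand apart in Ncx1-/- when it has at least 100 counts in the class, its level is at least 1.5 times above or below both other libraries, and the 95% counting interval of each ratio excludes 1. This held for 3 of the 8 measured members in the lower direction, beside 3.97% of 10772 measured genes. In the higher direction it held for 0 members, beside 6.84% of genes. The median log2 ratio of the members to Ncx1+/+ was -0.58, and that of all measured genes was 0.10. These 3 genes are already known to stand apart in these libraries from earlier work on the same data, so their number is a description.

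The Gli3 level in Ncx1-/- was 0.558 times that in Ncx1+/+ (95% interval 0.526 to 0.591) and 0.640 times that in Ncx1+/- (0.601 to 0.680), on 1523, 3124 and 4604 UMIs in Ncx1-/-, Ncx1+/- and Ncx1+/+. The Gli2 level was 0.387 times that in Ncx1+/+ (0.259 to 0.566) and 0.551 times that in Ncx1+/- (0.358 to 0.832), on 34, 81 and 148 UMIs. The Boc level was 0.345 times that in Ncx1+/+ (0.267 to 0.441) and 0.403 times that in Ncx1+/- (0.309 to 0.521), on 79, 257 and 386 UMIs. Gli3 is by far the best counted of these, and Gli2 in Ncx1-/- rests on few molecules. With free RNA subtracted, the log2 ratio of Gli2 to Ncx1+/+ was -2.35 in place of -1.37. At a limit of 2-fold only Boc stood apart.

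The heterozygous library lay between the others for each of these genes. Its endocardial Gli3 level was 0.872 times that in Ncx1+/+ (0.833 to 0.913), its Gli2 level 0.703 times (0.530 to 0.928) and its Boc level 0.856 times (0.728 to 1.005). The interval of Boc includes 1, so the Ncx1+/- and Ncx1+/+ levels of this gene could not be separated at this depth.

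Cdon also had its lowest endocardial level in Ncx1-/-, at 0.584 times that in Ncx1+/+ (0.504 to 0.675), but at 0.747 times that in Ncx1+/- (0.637 to 0.875) it did not reach the limit. Ptch1 was 0.766 times its Ncx1+/+ level (0.694 to 0.845) and Sufu 0.845 times (0.762 to 0.935). Smo, at 1.01 times (0.919 to 1.11), and Gas1, at 0.996 times (0.722 to 1.37), had intervals that include 1. The reduction was therefore uneven over the receptor side: Boc was furthest below 1, Cdon less so, and the intervals of Gas1 and Smo lay across it. Hhip had 9, 17 and 3 UMIs in endocardial nuclei of Ncx1-/-, Ncx1+/- and Ncx1+/+ and was not measured.

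**Figure D2:**
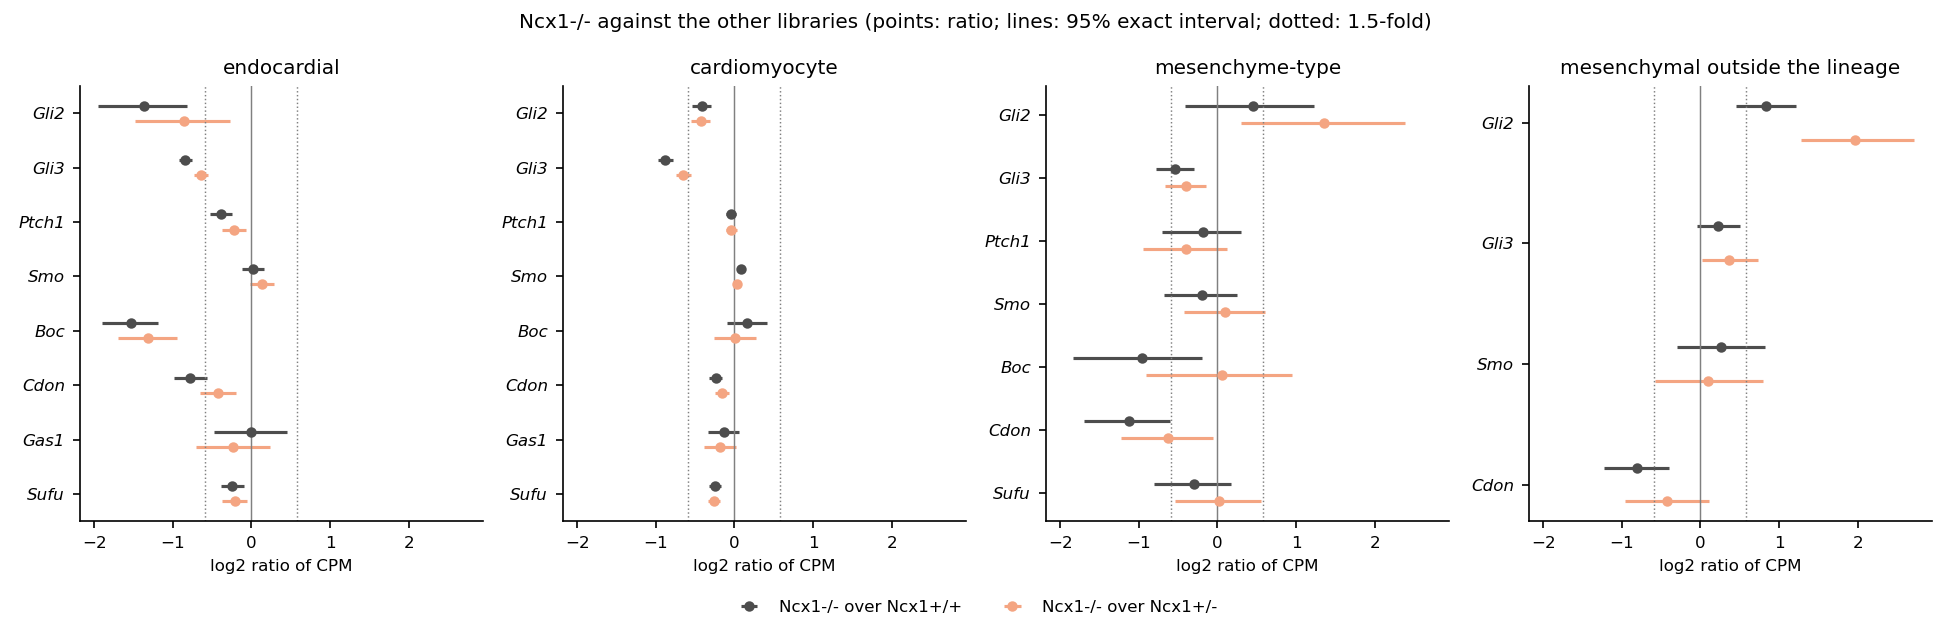
Log2 ratio of CPM of Ncx1-/- over Ncx1+/+ (grey) and over Ncx1+/- (orange) for the measured hedgehog genes in 4 classes, with 95% exact counting intervals as lines, 0 as the solid line and 1.5-fold as dotted lines. In endocardial nuclei Gli2, Gli3 and Boc have both points beyond the left dotted line, and in mesenchymal nuclei outside the lineage Gli2 has both points beyond the right one.

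The share of nuclei with a UMI gave the same order after every nucleus was thinned to 2000 UMIs. Gli3 was found in 33.5% of 1335 endocardial nuclei of Ncx1-/- (exact 95% interval 31.0 to 36.1), 50.6% of 1647 in Ncx1+/- (48.1 to 53.0) and 57.2% of 1850 in Ncx1+/+ (55.0 to 59.5). Without thinning the shares were 52.0%, 71.2% and 79.9%. Thinning left out 64, 61 and 43 shallower nuclei. In thinned erythroid nuclei, the share with Gli3 was 9.09% of 11 in Ncx1-/-, 0% of 133 in Ncx1+/- and 2.75% of 182 in Ncx1+/+. The endocardial shares of Boc were 2.10%, 5.34% and 5.89% in Ncx1-/-, Ncx1+/- and Ncx1+/+. For both genes the interval of Ncx1-/- lay below those of the other libraries. The thinned shares of Gli2 were 0.674%, 1.70% and 2.65%, and the Ncx1-/- interval (0.309 to 1.28) overlapped that of Ncx1+/- (1.13 to 2.45).

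Markers of cushion mesenchyme moved in the same direction within the endocardial class. The 13 markers summed to 395 CPM in Ncx1-/-, 661 CPM in Ncx1+/- and 803 CPM in Ncx1+/+, with no marker at 0 in any library, whereas the 16 endothelial markers summed to 8038, 7749 and 7703 CPM. Median depth was 3661, 4064 and 4834 UMIs per nucleus. The part of either in the lower Gli3, Gli2 and Boc was not tested.

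Subsets of the endocardial class were cut by 3 gating genes each, with none a hedgehog gene, and are called by those genes. The share of all genes called within a subset was not computed, so subset counts and calls of members are a description. Gli3 was measured in all 7 subsets and was lower in Ncx1-/- than in Ncx1+/+ in 7 of 7, each with an interval below 1; against Ncx1+/- the interval lay below 1 in 6. In the largest subset, Sema4d/Nrg1/Slit2, Gli3 stood at 318 CPM in 329 nuclei of Ncx1-/-, 431 CPM in 736 nuclei of Ncx1+/- and 472 CPM in 751 nuclei of Ncx1+/+. The Ncx1-/- value was the lowest, though the gap to Ncx1+/- stayed under 1.5-fold.

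Gli3 stood apart in the Cyp26a1/Pcdh17/Aplnr subset, with 234, 427 and 511 CPM in Ncx1-/-, Ncx1+/- and Ncx1+/+ (176, 179 and 216 UMIs). It also stood apart in Dkk2/Ano1/Pcdh11x, with 115, 426 and 546 CPM, but Ncx1-/- had only 9 nuclei and 5 UMIs of Gli3 there. The Etv2/Kit/Grin2c subset had Gli3 at 233, 333 and 343 CPM in Ncx1-/-, Ncx1+/- and Ncx1+/+, the lowest level of the 7 subsets in Ncx1+/- and in Ncx1+/+. Gli3 was thus detected in every subset of every library.

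Boc was uneven over the subsets of Ncx1+/+. In Fam155a/Adamts19/Syndig1 nuclei it stood at 20.1 CPM in Ncx1-/-, on 2 UMIs from 21 nuclei, 82.7 CPM in Ncx1+/- and 129 CPM in Ncx1+/+. In the Sema4d/Nrg1/Slit2 subset, with more nuclei, Boc stood at 14.5, 35.9 and 31.0 CPM in Ncx1-/-, Ncx1+/- and Ncx1+/+ and stood apart. In the Etv2/Kit/Grin2c subset it stood at 17.0, 13.5 and 22.4 CPM, where the libraries could not be told apart by their counting intervals. Ptch1 was highest in Dkk2/Ano1/Pcdh11x nuclei, at 161, 204 and 203 CPM, the first on 7 UMIs.

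Cdon was measured in 6 of the 7 subsets and stood apart in 2 of them, with no share of all genes to set beside this. In Tbx5/Ebf3/Ebf2 nuclei it stood at 39.9, 66.8 and 83.9 CPM in Ncx1-/-, Ncx1+/- and Ncx1+/+, on 29, 47 and 76 UMIs, so that Ncx1-/- was 0.476 times Ncx1+/+ (0.299 to 0.739) and 0.597 times Ncx1+/- (0.363 to 0.969). In Fam155a/Adamts19/Syndig1 nuclei it stood at 20.1, 82.7 and 108 CPM, the first on 2 UMIs. In the larger Sema4d/Nrg1/Slit2 subset Cdon did not stand apart, at 44.2, 52.2 and 67.0 CPM.

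The mix of subsets differed between libraries, and Fam155a/Adamts19/Syndig1 nuclei numbered 21, 121 and 156 in Ncx1-/-, Ncx1+/- and Ncx1+/+. When every library was given the subset mix of Ncx1+/+, the endocardial level in Ncx1-/- was 0.585 times that in Ncx1+/+ for Gli3, 0.415 times for Gli2 and 0.359 times for Boc. Against Ncx1+/- the values were 0.669 for Gli3, which no longer reaches 1.5-fold, 0.549 for Gli2 and 0.404 for Boc. This weighting was chosen after the data were seen.

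**Figure D3:**
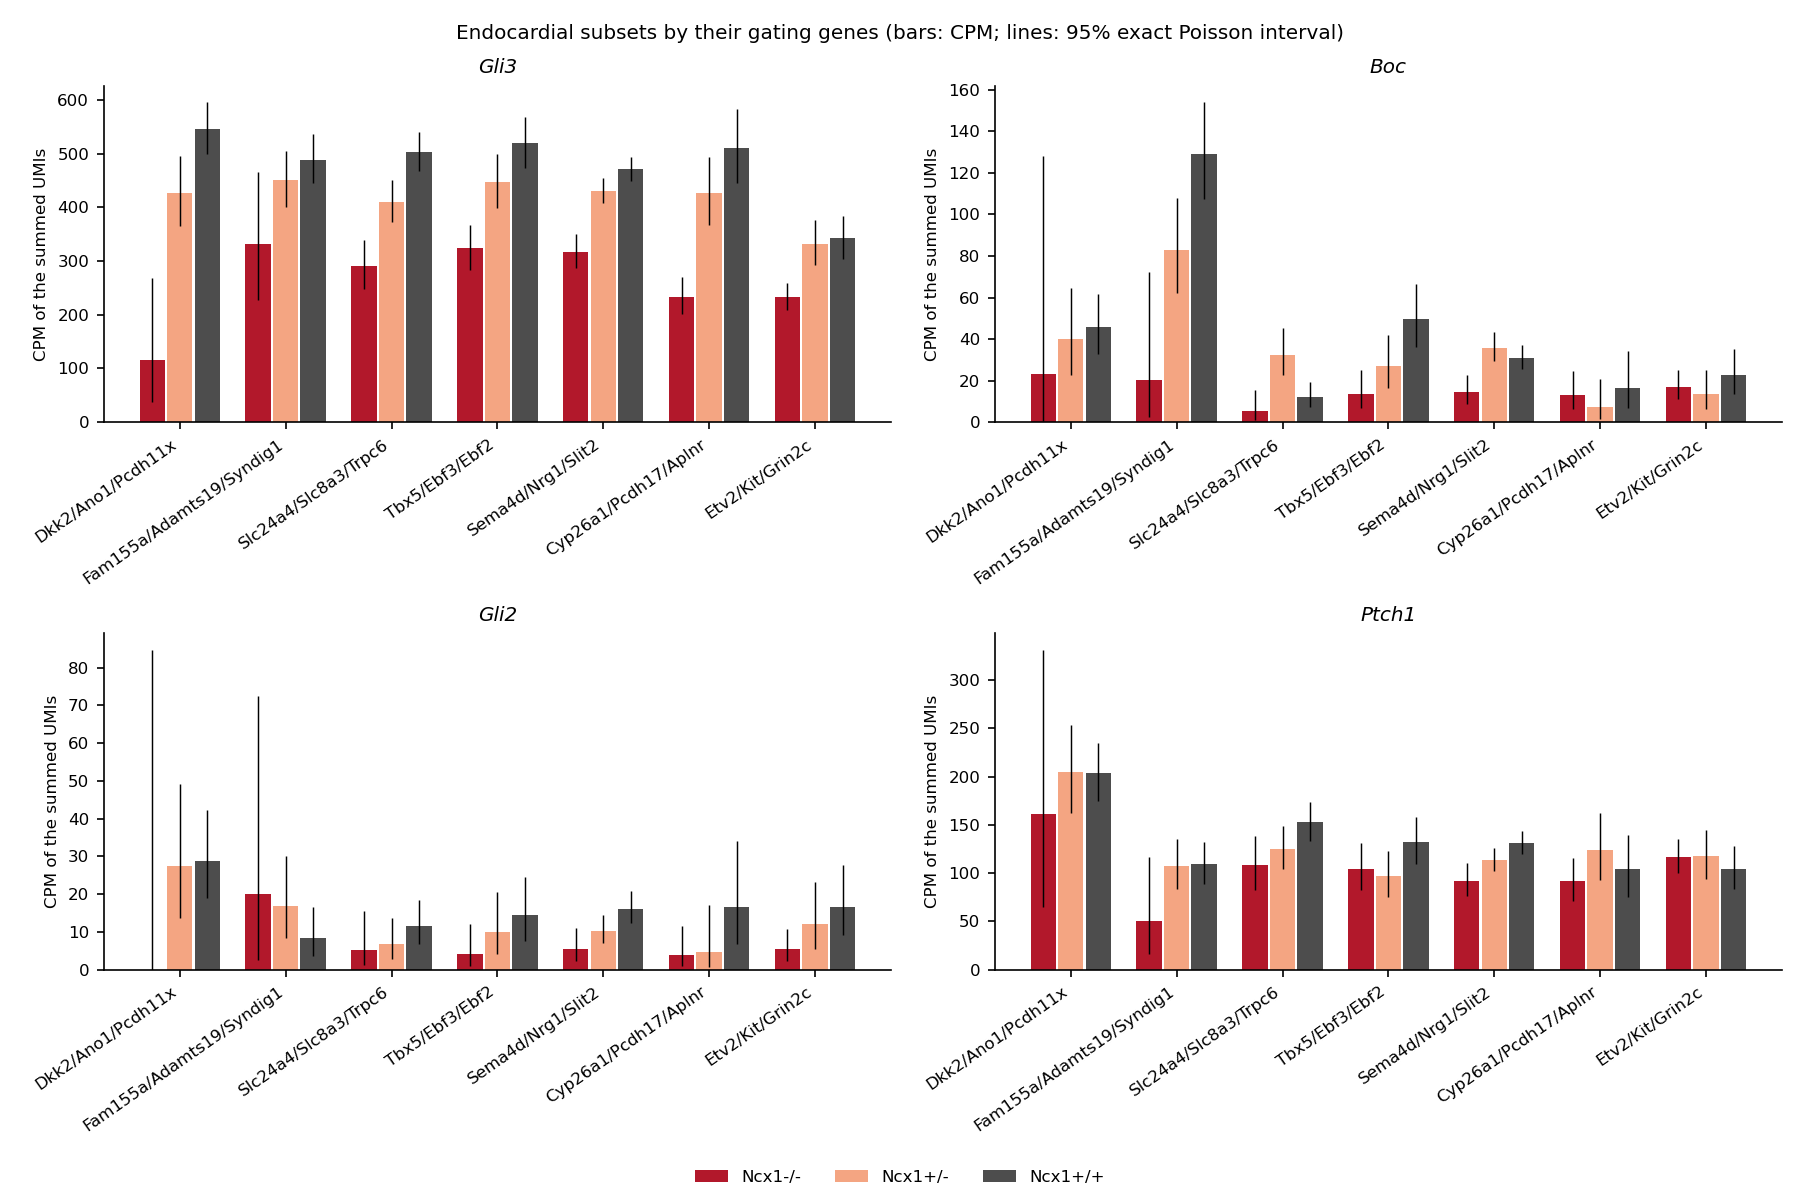
Summed level (CPM, linear axes from 0) of Gli3, Boc, Gli2 and Ptch1 in the 7 endocardial subsets, named by their gating genes, with bars for Ncx1-/-, Ncx1+/- and Ncx1+/+ from left to right and lines for 95% exact Poisson intervals. The Gli3 bar of Ncx1-/- is the lowest of its trio in all 7 subsets, and the tallest Boc bar is that of Ncx1+/+ Fam155a/Adamts19/Syndig1 nuclei at 129 CPM.

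In cardiomyocytes the measured members other than Gli2 and Gli3 lay between 0.844 and 1.12 times their Ncx1+/+ level in Ncx1-/-. Gli3 stood apart there too, at 0.545 times the Ncx1+/+ level (0.512 to 0.580) and 0.637 times the Ncx1+/- level (0.596 to 0.680), on 1568, 2112 and 2853 UMIs in Ncx1-/-, Ncx1+/- and Ncx1+/+. It was 1 of 8 measured members, beside 3.01% of 14297 genes lower and 4.46% higher. Gli2 was 0.749 times the Ncx1+/+ level (0.691 to 0.811) and did not reach the limit. Ptch1 was 0.969 times (0.926 to 1.01), Boc 1.12 times (0.934 to 1.34) and Smo 1.06 times (1.02 to 1.10). Boc thus stood apart in endocardial nuclei and had an interval across 1 in cardiomyocytes, although the difference between those classes was not tested. At 2-fold no member stood apart in cardiomyocytes.

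Cardiomyocytes that carried second heart field markers had more Gli2 and Gli3. The comparison was chosen after the data were seen and sets the 332, 298 and 382 nuclei of Ncx1-/-, Ncx1+/- and Ncx1+/+ with at least 2 of the 10 markers, such as Isl1, Fgf10 and Tbx1, against the 7030, 6305 and 6576 with none. The remaining 2016, 2130 and 2296 cardiomyocytes had 1 marker and were left out.

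Gli3 stood at 94.3, 111 and 134 CPM in the nuclei with markers of Ncx1-/-, Ncx1+/- and Ncx1+/+, against 33.4, 55.9 and 63.0 CPM in those without. The log2 difference was 1.20 (SE 0.09, edgeR adjusted p = 1.88e-14), and without the library block the edgeR adjusted p was 0.0610. Gli2 stood at 63.4, 63.6 and 51.6 CPM against 23.1, 32.9 and 32.8 CPM, a difference of 1.04 (SE 0.12, edgeR adjusted p = 5.30e-09). Both genes were higher with the markers in all 3 libraries, and the Gli3 level was lowest in Ncx1-/- on both sides.

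None of the other members tested passed: Ptch1 stood at 99.2, 101 and 100.3 CPM in nuclei with markers of Ncx1-/-, Ncx1+/- and Ncx1+/+ and at 97.6, 99.97 and 99.5 CPM in those without (0.04, SE 0.07, edgeR adjusted p = 0.888). With 2 of 9 members higher and 0 lower, the background was 3.53% of 14564 genes higher and 2.23% lower. Nuclei with markers were deeper, at median 4513, 4310 and 4431 UMIs against 3527, 3273 and 3630. Their cushion mesenchyme markers summed to 647, 739 and 710 CPM against 465, 545 and 562 CPM, and the part of these in the GLI levels was not tested.

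**Figure D4:**
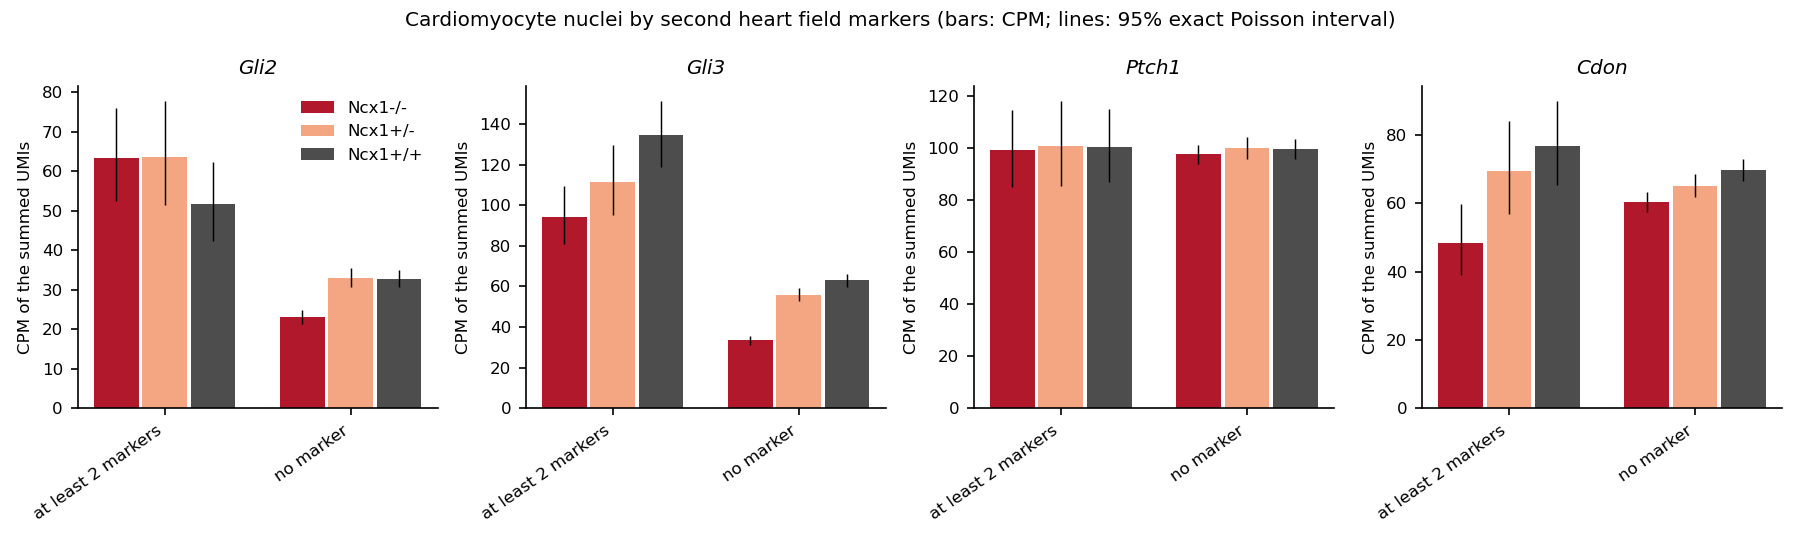
Summed level (CPM, linear axes from 0) of Gli2, Gli3, Ptch1 and Cdon in cardiomyocyte nuclei with at least 2 second heart field markers and with none, bars for Ncx1-/-, Ncx1+/- and Ncx1+/+ from left to right, lines for 95% exact Poisson intervals. Gli2 and Gli3 are higher with the markers in each library, for example 94.3 against 33.4 CPM for Gli3 in Ncx1-/-, while Ptch1 stays near 100 CPM.

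Mesenchyme-type nuclei had more Cdon than endocardial nuclei. Cdon stood at 78.1, 120 and 171 CPM in mesenchyme-type nuclei of Ncx1-/-, Ncx1+/- and Ncx1+/+, against 43.8, 58.6 and 75.0 CPM in endocardial nuclei. The log2 difference was 1.12 (SE 0.14, edgeR adjusted p = 7.71e-05), and Cdon was the 1 of 8 tested members that passed, beside 3.1% of 11137 genes higher and 2.22% lower. Gli2 differed by 1.27 (SE 0.41, edgeR adjusted p = 0.0865), Boc by 0.76 (SE 0.28, adjusted p = 0.155) and Gli3 by 0.41 (SE 0.21, adjusted p = 0.366). These 3 also passed when the Ncx1-/- library, with 70 mesenchyme-type nuclei, was left out. Mesenchyme-type nuclei were deeper, at median 5466, 6012 and 5844 UMIs against 3661, 4064 and 4834 in endocardial nuclei of Ncx1-/-, Ncx1+/- and Ncx1+/+. The highest 8% of doublet scores, by the caller Scrublet, held 8, 10 and 23 of the 70, 180 and 356 mesenchyme-type nuclei. Of the 1399, 1708 and 1893 endocardial nuclei they held 12, 22 and 29. The part of depth or mixed nuclei in these differences was not tested.

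Within the mesenchyme-type class Cdon stood apart in Ncx1-/-, at 0.457 times the Ncx1+/+ level (0.308 to 0.656) and 0.649 times the Ncx1+/- level (0.427 to 0.961), on 32, 133 and 405 UMIs in Ncx1-/-, Ncx1+/- and Ncx1+/+. It was 1 of 7 measured members, beside 3.73% of 6139 genes lower and 5.21% higher. The call was lost with both the stricter and the looser gate. Gli3 stood at 400, 529 and 581 CPM, so its Ncx1-/- level was 0.689 times that in Ncx1+/+ (0.582 to 0.810) without reaching the limit.

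Among the cardiomyocyte, endocardial, mesenchyme-type, erythroid and outside-the-lineage mesenchymal classes, the last had the highest Gli2, Gli3, Cdon and Gas1 levels in every library. Its Smo levels of 182, 170 and 151 CPM in Ncx1-/-, Ncx1+/- and Ncx1+/+ were also the highest of these classes. The small epithelial class, with 32, 7 and 14 nuclei, was not tested and had Gli2 at 425, 262 and 409 CPM and Gas1 at 167, 374 and 78.0 CPM. Epithelial Cdon stood at 467, 225 and 565 CPM on 56, 6 and 29 UMIs, against 230, 309 and 402 CPM in mesenchymal nuclei outside the lineage. Smo in epicardial nuclei, also not tested, stood at 199 CPM in Ncx1-/- and 110 CPM in Ncx1+/+. In mesenchymal nuclei outside the lineage Gli2 stood at 472, 121 and 265 CPM in Ncx1-/-, Ncx1+/- and Ncx1+/+, against 41.5, 16.3 and 30.4 CPM in mesenchyme-type nuclei. All values of the class lay above all mesenchyme-type values, a log2 difference of 3.37 (SE 0.39, edgeR adjusted p = 5.11e-06). Gas1 was higher by 2.50 (SE 0.33, edgeR adjusted p = 2.61e-05) and Cdon by 1.16 (SE 0.16, edgeR adjusted p = 5.22e-05), while Sufu was lower by 0.59 (log2 difference -0.59, SE 0.18, edgeR adjusted p = 0.0309). The comparison was chosen after the data were seen. With 3 of 8 members higher and 1 lower, it stood beside 7.56% of 11137 genes higher and 10.6% lower. Gli3 (log2 difference 0.26, SE 0.23, edgeR adjusted p = 0.486) and Smo (0.35, SE 0.16, edgeR adjusted p = 0.157) did not pass. The Sufu call was lost when any 1 library was left out.

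Gli2 in this class was the only measured member that stood apart upward in Ncx1-/- in any of the 4 classes compared by genotype. Its level was 1.78 times that in Ncx1+/+ (1.37 to 2.32) and 3.89 times that in Ncx1+/- (2.44 to 6.55), on 156, 20 and 93 UMIs from 91, 50 and 86 nuclei of Ncx1-/-, Ncx1+/- and Ncx1+/+. It was 1 of 4 measured members, beside 5.39% of 2078 genes higher and 8.71% lower. Gli3, at 735, 570 and 628 CPM, did not reach the limit, and Cdon, at 230, 309 and 402 CPM, had its lowest level in Ncx1-/-. The make-up of the class also differed by library: epicardial markers summed to 272, 90.9 and 203 CPM, endothelial markers to 266, 733 and 648 CPM, second heart field markers to 45.4, 200.02 and 166 CPM and epithelial markers to 179, 139 and 65.6 CPM in Ncx1-/-, Ncx1+/- and Ncx1+/+. Their part in the Gli2 level was not tested. In epicardial nuclei, which numbered 70, 2 and 52, Gli2 stood at 226 CPM in Ncx1-/- and 210 CPM in Ncx1+/+.

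**Figure D5:**
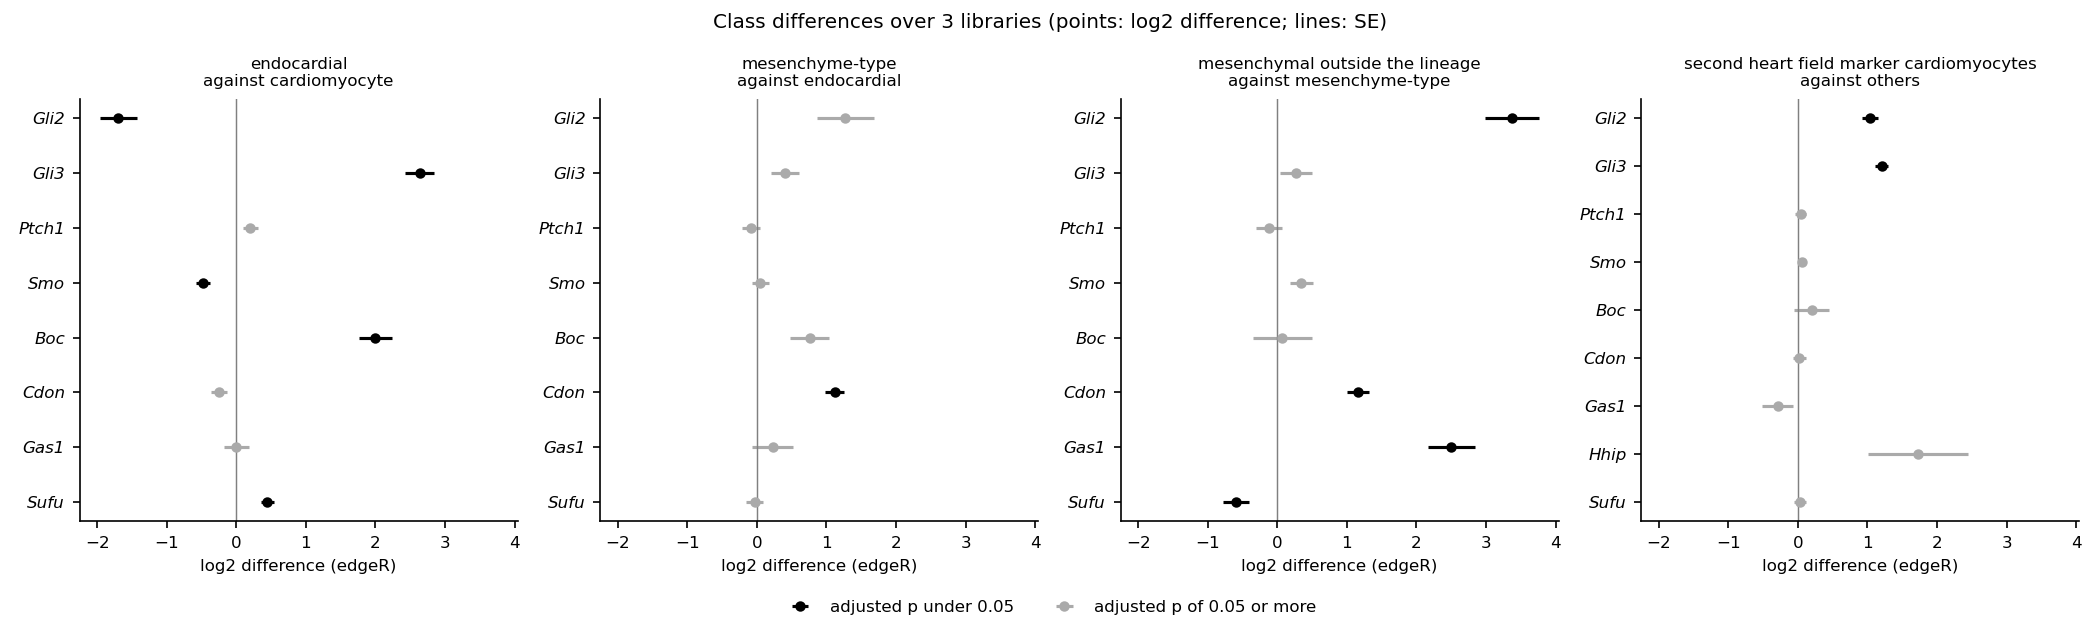
Log2 difference between classes for each hedgehog gene tested (points) with its SE (lines), from edgeR's quasi-likelihood test over 3 libraries, black where the adjusted p is under 0.05 and grey otherwise. Gli3 and Gli2 lie on opposite sides of 0 between endocardial and cardiomyocyte nuclei, at 2.64 and -1.69, and Gli2 has the largest difference, 3.37, between mesenchymal nuclei outside the lineage and mesenchyme-type nuclei.

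Ligand transcripts were scarce. Shh, the ligand of the foregut endoderm and the notochord, had 0 UMIs in endocardial nuclei of every library, which allows up to 0.525 CPM in Ncx1-/-, 0.400 CPM in Ncx1+/- and 0.311 CPM in Ncx1+/+, and also 0 in cardiomyocytes. Ihh had 3, 1 and 1 UMIs in cardiomyocytes of Ncx1-/-, Ncx1+/- and Ncx1+/+. Dhh had 27, 29 and 34 UMIs in endocardial nuclei, which is 4.73, 3.87 and 3.53 CPM, against 0.261, 0.335 and 0.237 CPM in cardiomyocytes. Dhh, known from endothelium and Schwann cells, also had 14 and 17 UMIs in erythroid nuclei of Ncx1+/- and Ncx1+/+ (20.8 and 19.5 CPM); the 0 UMIs in those of Ncx1-/- allow up to 31.1 CPM, so no difference was detectable at this depth.

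Of 46 other pathway genes in the table, 29 were measured in endocardial nuclei, with 1 higher and 0 lower in Ncx1-/-, beside the 6.84% higher and 3.97% lower of all measured genes. Their median log2 ratio to Ncx1+/+ was 0.03. The gene that was higher was Sfrp1, a secreted Wnt inhibitor listed as a hedgehog target. It stood at 7.88, 3.603 and 3.01 CPM in Ncx1-/-, Ncx1+/- and Ncx1+/+ on 45, 27 and 29 UMIs. Sfrp1 was lower in endocardial nuclei than in cardiomyocytes (log2 difference -2.72, SE 0.23, edgeR adjusted p = 2.95e-09). Cardiomyocyte markers in endocardial nuclei reached 9.65%, 7.64% and 7.28% of their cardiomyocyte level. The part of free RNA in the endocardial Sfrp1 values was not tested. The kinase gene Gsk3b, the best counted of the 18 genes of cilium function and GLI processing, stood at 764, 845 and 823 CPM, and 0 of the 16 measured there stood apart. The best counted genes of the other roles did not stand apart either: Bcl2, a survival gene listed as a target, had 225, 211 and 240 CPM, and Mgrn1, an attenuator of Smo, had 38.0, 43.5 and 46.4 CPM. In cardiomyocytes 36 of the 46 were measured and 0 stood apart in either direction. In mesenchyme-type nuclei Gpc3, a cell-surface proteoglycan that binds hedgehog ligands, was 1.81 times its Ncx1+/+ level (1.60 to 2.04). In erythroid nuclei Gpc3 stood at 218, 62.3 and 101 CPM in Ncx1-/-, Ncx1+/- and Ncx1+/+, on 21, 42 and 88 UMIs. Cardiomyocyte markers reached 15.4%, 11.5% and 11.5% of their cardiomyocyte level there, and at that share the Gpc3 of cardiomyocytes would give as much, so the erythroid values are not read as expression.

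In mesenchymal nuclei outside the lineage 3 of 12 measured list genes were higher in Ncx1-/- and 0 lower, beside 5.39% of all measured genes higher and 8.71% lower. Disp1, which releases the ligand from the cell that makes it, stood at 242, 72.7 and 137 CPM in Ncx1-/-, Ncx1+/- and Ncx1+/+. Scube1, which helps ligand release, stood at 218, 72.7 and 99.9 CPM, and Lrp2, an endocytic receptor, at 227, 42.4 and 99.9 CPM. All 3 had the same order of libraries as Gli2 in that class, and the part of its differing marker sums was not tested for them either.

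Between endocardial nuclei and cardiomyocytes, 8 of 33 list genes tested were higher and 14 lower by edgeR, beside 31.1% and 34.5% of all genes tested. Scube1 was lower by 4.73 on the log2 scale (log2 difference -4.73, SE 0.24, edgeR adjusted p = 1.77e-12), and Gpc3 stood at 192, 172 and 167 CPM in endocardial nuclei of Ncx1-/-, Ncx1+/- and Ncx1+/+ against 1547, 1742 and 1730 CPM in cardiomyocytes. Cardiomyocyte markers in these endocardial nuclei reached 9.65%, 7.64% and 7.28% of their cardiomyocyte level. The part of free RNA in the endocardial Gpc3 values was not tested.

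Profiles over the 15 class-by-library units were compared by Pearson's r of log2(CPM + 1), as a description over units that share libraries and depth. The gene most like Gli3 was Rbms3 (r = 0.987), followed by Ccdc80 (0.987) and Lpar1 (0.982). The one most like Gli2 was Igdcc3 (0.981), most like Boc was Egflam (0.976), most like Cdon was Adcy2 (0.976) and most like Gas1 was Arl4c (0.982). For Sufu it was Rgs7bp (0.977) and for Ptch1 Cog2 (0.854), the weakest of these. The nearest profile of Ptch1 was thus the least close. Over the 15 units the CPM of Ptch1 ranged from 78.7 in Ncx1-/- to 145 in Ncx1+/-, both in mesenchymal nuclei outside the lineage, on 26 and 24 UMIs. It ranged from 97.6 to 135 over the cardiomyocyte, endocardial and mesenchyme-type units. No other hedgehog gene was among the 3 most alike of any member.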

How the data were processed

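Single-nucleus libraries were made from frozen hearts whose nuclei were sorted by flow cytometry, with the 10x Genomics kit version 3.1, per the labels' protocols. The authors deposited whole-number UMI counts per gene and barcode, without normalisation. Cell Ranger 6.1.0 and mm10 were used per the submitters' processing notes, and the file headers name version 9.0.0. No source used here says if intronic reads counted. Gene identifiers matched GENCODE M21 for 27722 of 27998 (99.0%). Strand use in counting is not given either, so reads from overlapping or antisense genes, such as the antisense transcript across the Gli3 start, cannot be told apart.

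The members and all gene lists were chosen with earlier results of these data known. Kept barcodes had 500 or more genes and no more than 5% mitochondrial UMIs. Cardiomyocytes needed 5 of 16 markers and 100 marker UMIs per 10000, endocardial nuclei 6 of 16 markers, erythroid nuclei 6 of 15; mesenchyme-type nuclei were endocardial with 4 of 13 mesenchyme markers, and mesenchymal nuclei outside the lineage had 4 of those and at most 3 endothelial ones. Epicardial and epithelial nuclei needed 3 markers. Nuclei in no gate, or in both the epicardial and the epithelial gate, were set aside. Nuclei with mesenchyme markers that also met the epicardial or the epithelial gate were placed in that class. No doublet caller removed nuclei outside the alternatives. A subset needed 2 UMIs of its gating genes and took the nucleus by the highest ratio to their mean share.

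Counts were summed per class and library and given as CPM of the class total, with exact Poisson intervals. Ratios have exact conditional binomial (Clopper-Pearson) intervals at 95%; all intervals and limits cover counting error only, and a count of 0 allows 3 counts. Classes with at least 20 nuclei in every library were compared with edgeR 4.0.16 (TMM factors, quasi-likelihood, library as a block, Benjamini-Hochberg over all genes tested). The comparison of mesenchymal nuclei outside the lineage, that of second heart field markers, the subset weighting and the totals without Malat1 were added after the data were seen. All 10 members are named where measured. The other pathway genes come from a list of 47, of which 46 are in the table: ligands are always named, others where they stood apart or had the most counts of their role. Both rules were checked on simulated counts with known changes. For the genotype rule these counts varied by counting error only, so the check cannot cover differences between pools of hearts. For the class test their spread was set at a fixed value. Sequences are RefSeq's, GRCm38.p6; 8 of the 10 members matched. The alternatives were other scalings, no count minimum, 1000 genes per nucleus, stricter and looser gates, Scrublet's top 8% removed, free RNA subtracted, a fold of 2, DESeq2 1.42.0, upper-quartile factors, no expression filter, no library block and each library left out. Results on some genes are not reported here.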

Additional observations from a re-analysis of the deposited data

Results flagged for a closer look

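Gli2 moved in opposite directions in Ncx1-/- in 2 classes. In endocardial nuclei its level was 0.387 times that in Ncx1+/+, and in mesenchymal nuclei outside the lineage it was 1.78 times that in Ncx1+/+. In each class the ratio to Ncx1+/- had the same direction, at 0.551 and 3.89. Each class rests on 1 library per genotype, and the difference between the classes was not tested. The endocardial value rests on 34 UMIs in Ncx1-/- and the mesenchymal one on 20 UMIs in Ncx1+/-. Cushion mesenchyme markers summed to 395, 661 and 803 CPM in endocardial nuclei of Ncx1-/-, Ncx1+/- and Ncx1+/+, and to 3216, 2982 and 2877 CPM in the mesenchymal nuclei. Their part in the result was not tested.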

How the results depend on the processing

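The 3 endocardial members that stood apart (Gli2, Gli3, Boc) did so under the other scalings, no count minimum, 1000 genes per nucleus, both gates, Scrublet, free RNA subtracted and Malat1 left out; at the fold of 2, 1 remained (Boc). Under the subset mix of Ncx1+/+, added after the data were seen, Gli3 missed the limit against Ncx1+/-. That fold also gave 0 in cardiomyocytes, 0 in mesenchyme-type nuclei and 0 in mesenchymal nuclei outside the lineage. In mesenchyme-type nuclei the stricter and the looser gate gave 0 each. With no count minimum, mesenchymal nuclei outside the lineage had 2 members higher (Gli2 and Gas1) and 1 lower (Boc). The endocardial log2 ratio to Ncx1+/+ ranged over the alternatives from -0.94 to -0.77 for Gli3, from -2.35 to -1.23 for Gli2 and from -1.63 to -1.41 for Boc.

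For mesenchyme-type against endocardial nuclei, edgeR called 592 genes; it called 980 with no filter, 312 with no library block and 338 with free RNA subtracted, and between 98 and 1153 with 1 library left out. The members higher were 3 with no filter, 2 with the stricter gate and between 1 and 4 with 1 library left out. For mesenchymal nuclei outside the lineage against mesenchyme-type, 2020 genes were called, and between 911 and 1599 with 1 library left out; the members lower were 0 with no library block and 0 with any 1 library left out. For the second heart field comparison, 839 genes were called, against 402 by DESeq2 and 91 with no library block, and the members higher were 1 with no library block. The cause of these changes was not tested.

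Directions that turned round concern differences that passed in neither fit. Gas1, endocardial against cardiomyocyte, turned to 0.048 with no filter and 0.027 with free RNA subtracted, and ranged from -0.033 to 0.042 with a library left out. Smo, mesenchyme-type against endocardial, turned to -0.033 with no filter and -0.060 with the stricter gate, and ranged from -0.039 to 0.086 with a library left out. In that comparison Gas1 ranged from -0.095 to 0.53, Ptch1 from -0.20 to 0.045 and Sufu from -0.12 to 0.039. Outside the lineage Gli3 ranged from -0.050 to 0.40, Ptch1 from -0.28 to 0.039 and Boc from -0.24 to 0.34, and Boc was -0.0053 with no library block. With second heart field markers Cdon ranged from -0.077 to 0.14 and Sufu from -0.075 to 0.093, and Cdon was -0.012 with no filter.

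With at least 3 UMIs of the gating genes, subset levels of Gli2 in Ncx1-/- fell to 0 CPM in Fam155a/Adamts19/Syndig1, Slc24a4/Slc8a3/Trpc6 and Tbx5/Ebf3/Ebf2. Gli2 was 13.3 CPM in Dkk2/Ano1/Pcdh11x and 0 CPM in Cyp26a1/Pcdh17/Aplnr of Ncx1+/-, and Gli3 was 436 CPM in Cyp26a1/Pcdh17/Aplnr of Ncx1+/+. No paired analysis was possible because there is 1 library per genotype; the library entered as a block only between classes. The planned test of epicardial against cardiomyocyte nuclei was not run, since Ncx1+/- held 2 epicardial nuclei.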
